A study of Mus musculus with 4 samples.

Results

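This report describes 69 genes of the mitochondrial ribosome, of protein import into mitochondria and of mitochondrial fission and fusion, out of the 9114 genes in the deposited table. A rule on gene names, set with earlier results of these data known, picked them: the ribosomal proteins (Mrpl and Mrps), the translocases (Tomm and Timm), mitochondrial translation factors and tRNA synthetases, the replication and transcription factors of mitochondrial DNA, the fission and fusion genes, the prohibitins, the chaperonin Hspd1, and the voltage-dependent anion channels. The annotation GENCODE vM21 holds 151 protein-coding genes with such names, of which 68 have a row in the table, and the others are not analysed here. The member left over is Tomm6os, a noncoding RNA annotated as antisense. RNA came from lymphatic endothelial cells of the brain meninges. The donors were C57BL/6J males, 20 to 24 months old, that had been given 5 µL of virus through the cisterna magna 4 weeks before. The adeno-associated virus AAV1-CMV-mVEGF-C carried mouse VEGF-C, the growth factor of lymphatic vessels, and AAV1-CMV-eGFP carried a fluorescent protein as the control. All mice of both groups were aged and had received a virus, and the CMV promoter is not restricted to one cell type. The sort kept DAPI-negative single cells with CD31 and podoplanin and without the leukocyte marker CD45. Each library pooled 10 mice, and each group had 2 libraries.

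Mitochondria keep a small genome whose messages encode core subunits of the respiratory chain. A ribosome of their own translates these messages, and all of its proteins are encoded in the nucleus, made in the cytosol and imported through the TOM complex of the outer membrane and the TIM complexes of the inner membrane. Mitochondria also fuse and divide, which in endothelial cells shapes a network that serves signalling and biosynthesis as well as energy supply.

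The 4 libraries held 25610683 to 28632461 recovered reads, and the groups overlapped in depth. All 12 lymphatic markers looked for had a row and together took 1.94% to 2.22% of the normalised counts. Markers of meningeal fibroblasts were also present: 11 of 12 had a row, none was at 0, and their summed normalised count was 242043 in eGFP 1, 94595 in eGFP 2, 255203 in mVEGF-C 1 and 210269 in mVEGF-C 2, so eGFP 2 stood apart as the lowest. Of these 11 markers 2 were called higher in mVEGF-C, against 0.828% of all genes tested. They were Fmod at a log2 fold change of 2.69 and Igfbp5 at 0.62 (limma, adjusted p = 0.00729 and 0.0151). None was called lower. Fold changes were above 0 for 9 markers and below 0 for 2. The groups lay apart with mVEGF-C above for 2 and below for 1, or 27.3% of the 11. Over all genes tested the shares were 19.4% above and 19.8% below, 39.2% in all. The marker below was Col6a1, at 5811 and 1948 in eGFP against 1652 and 1189 in mVEGF-C libraries. Igfbp5 overlapped between the groups, since eGFP 1 (140594) lay above mVEGF-C 1 (132701) and mVEGF-C 2 (129644), and eGFP 2 (51757) was low. The part of fibroblast RNA in the results below was not tested, and in such pooled samples fewer cells of a type and less RNA per cell cannot be told apart.

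Of the members, 4 differed between the groups by the test used here and are taken up in turn: Qrsl1 was higher, and Tomm5, Mrpl47 and Opa3 were lower, in the mVEGF-C libraries. The promoters of these genes are shown because they are the members that moved. RefSeq promoters were matched for 62 of the 69 members, and the 250 bases before the RefSeq start are given 5′ to 3′ on the gene's strand (build GRCm38.p6). Capitals mark the ETS core CGGAAG, or CTTCCG, its reverse complement.
Qrsl1 (chr10:43901737-43901986, minus strand): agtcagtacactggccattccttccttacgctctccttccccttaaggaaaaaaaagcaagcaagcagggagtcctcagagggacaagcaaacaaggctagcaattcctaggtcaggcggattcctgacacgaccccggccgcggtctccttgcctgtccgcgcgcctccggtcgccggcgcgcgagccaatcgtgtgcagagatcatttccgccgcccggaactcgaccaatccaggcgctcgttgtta
Tomm5 (chr4:45108114-45108363, minus strand): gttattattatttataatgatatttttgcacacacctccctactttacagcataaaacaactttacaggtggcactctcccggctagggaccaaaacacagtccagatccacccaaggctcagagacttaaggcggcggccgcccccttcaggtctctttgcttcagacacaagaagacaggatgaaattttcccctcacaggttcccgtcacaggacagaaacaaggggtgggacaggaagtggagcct
Mrpl47 (chr3:32736756-32737005, minus strand): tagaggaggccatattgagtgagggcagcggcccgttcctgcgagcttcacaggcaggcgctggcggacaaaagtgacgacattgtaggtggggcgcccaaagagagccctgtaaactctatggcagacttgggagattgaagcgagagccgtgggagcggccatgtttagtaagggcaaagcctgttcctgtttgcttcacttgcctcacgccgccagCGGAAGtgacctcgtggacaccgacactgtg
Opa3 (chr7:19228139-19228388, plus strand): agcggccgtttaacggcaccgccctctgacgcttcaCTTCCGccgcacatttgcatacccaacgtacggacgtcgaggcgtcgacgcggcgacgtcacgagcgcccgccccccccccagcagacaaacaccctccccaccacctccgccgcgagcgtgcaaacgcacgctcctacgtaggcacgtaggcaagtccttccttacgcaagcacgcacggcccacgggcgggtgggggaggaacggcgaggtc
The ETS core lay 31 bases before the RefSeq start in Mrpl47 and 214 bases before it in Opa3. The windows of Qrsl1 and Tomm5 did not hold these letters. The RefSeq and GENCODE starts differ, and for Mrpl47 the whole window lies within the GENCODE gene, 32725397 to 32737605. Part of the window also lies within the GENCODE gene for Opa3, from 19228334 on, and for Qrsl1, up to 43901745. For Tomm5 the window and the GENCODE gene meet at 45108114. ETS factors such as GABPA, also called nuclear respiratory factor 2, are known regulators of nuclear genes for mitochondria. Over the full 300-base windows and both strands, 59.7% of the 62 member promoters held CGGAAG, against 29.8% of 6190 promoters of genes tested and 17.2% of all 27025 promoters. The longer form CCGGAAG, which contains the core, was in 32.3%, 16.7% and 9.12%. The 10-base palindrome of nuclear respiratory factor 1 was in 3.23%, 1.79% and 0.977%, and the 11-base motif of YY1 in 4.84%, 1.47% and 0.699%. The ETS core was added after the longer form had matched none of the printed windows. These shares describe letters in the windows, and no binding was measured.

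The question for each gene was whether its level differed between the mVEGF-C and eGFP libraries. The test was limma on log2(normalised count + 1), "called" means an adjusted p under 0.05 (Benjamini-Hochberg over all 9063 genes tested), and fold changes are mVEGF-C minus eGFP on that log2 scale. Of the 69 members 68 passed the filter, a mean of at least 10 normalised counts. Calls were made for 1 higher and 3 lower, against a background of 0.828% of all genes higher and 1.31% lower, 2.14% in all. Of the 68, 37 had fold changes above 0 and 31 below, with a median of 0.14, against a median of -0.02 over all genes. Libraries of the groups lay fully apart for 29 of the 68, with mVEGF-C above for 17 (background 19.4%) and below for 12 (19.8%, or 39.2% in all). The difference exceeded the gap between replicates in both groups for 22 members, against 26.1% of all genes. At an unadjusted p under 0.05 in limma there were 5 members higher (background 5.09%) and 4 lower (6.7%), 11.8% of all genes in both directions. On the recovered reads edgeR called 3 members, 1 higher (background 0.739%) and 2 lower (0.872%, 1.61% in all). DESeq2 called 8, of which 4 were higher (background 3.12%) and 4 lower (3.51%, 6.63% in all). Without the variance trend limma called 2 members, 1 higher (background 0.166%) and 1 lower (0.287%, 0.452% in all).

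No deposited gene had a replicate gap above 2.83 (eGFP) or 4.24 (mVEGF-C) in log2(reads + 1), which are SDs of 2.0 and 2.999. If genes with wider gaps were left out of this table, the replicate spread in it is too small, and so are the p-values. The amount cannot be read from the values. Annotated genes without a row could be missing for that reason, which was not tested. The largest gap was wider in the mVEGF-C than in the eGFP pair. Genes low and uneven in mVEGF-C could thus have a row where genes equally low and uneven in eGFP had none. Mrpl47 and Opa3, both called lower, had gaps of 3.68 and 3.61 between mVEGF-C libraries in log2(normalised count + 1). Counts higher and lower carry this limit, and its effect on them was not tested.

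**Figure D1:**
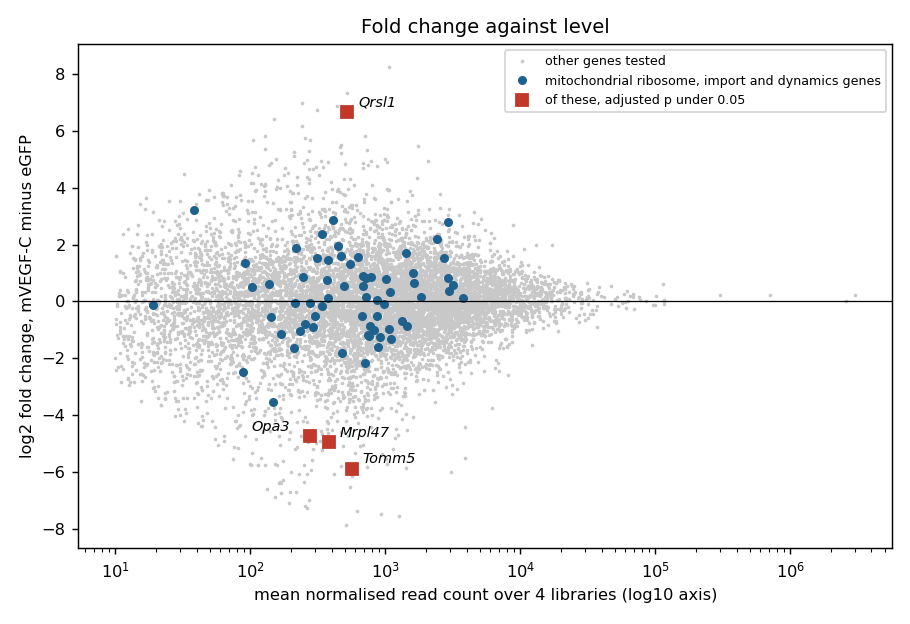
Each point is a gene, with the mean normalised read count over 4 libraries on a log10 axis and the log2 fold change, mVEGF-C minus eGFP, on the vertical axis. Grey points are all other genes tested, blue points the genes described here, and red squares the 4 called among them, which lie at 6.66 for Qrsl1 and at -4.76 to -5.89 for the others, while the blue points otherwise share the spread of the grey ones.

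**Figure D2:**
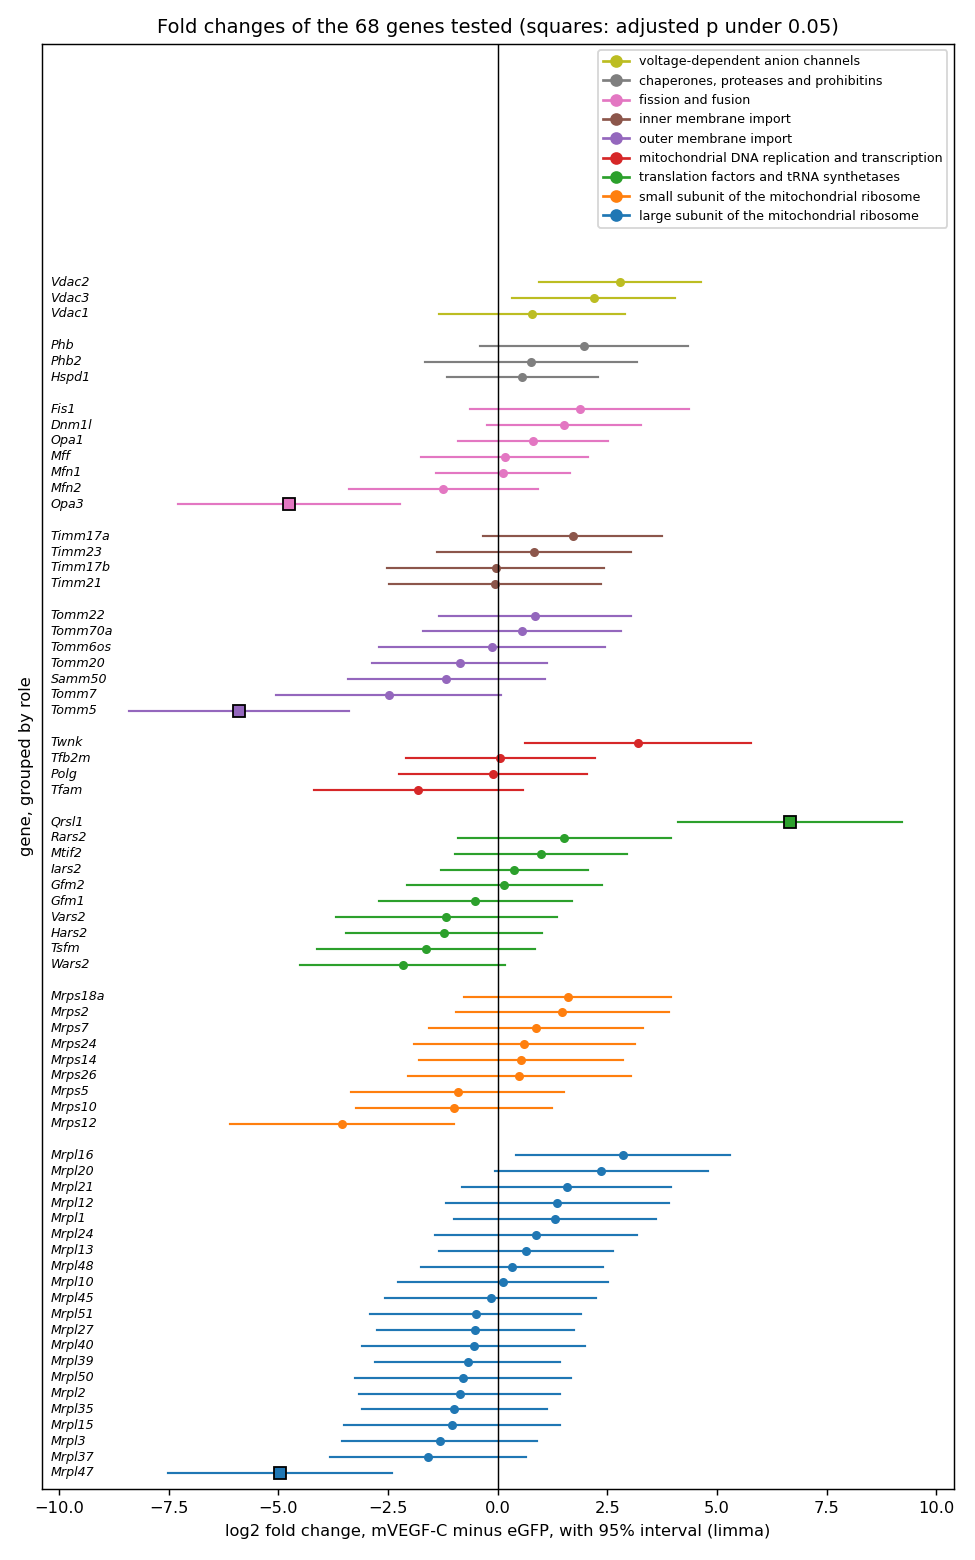
Each row is 1 of the 68 genes tested, grouped and coloured by role, with its log2 fold change (point) and 95% interval from limma (line). Squares with a black edge are called, and most other intervals include 0.

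Qrsl1 (ENSMUSG00000019863, chromosome 10, 43874188 to 43901745) encodes the catalytic subunit of GatCAB, the enzyme that turns glutamate into glutamine on the mitochondrial glutamine tRNA. It had 8.95 normalised counts in eGFP 1, 5.34 in eGFP 2, 378 in mVEGF-C 1 and 1696 in mVEGF-C 2. Both eGFP libraries were low, and the lower mVEGF-C library was 42.2-fold above the higher of them. On the log2 scale the difference was 6.66 ± 1.30 (SE, limma, adjusted p = 0.000148), and it was called in every alternative run except without eGFP 2 (adjusted p = 0.18). Rtn4ip1 starts 62 bases away in the opposite direction, and is not analysed here. Gatc, another subunit of the same enzyme, had 1133 and 454 in eGFP against 2725 and 1383 in mVEGF-C libraries. It did not overlap between groups but was not called (1.44 ± 1.04 SE, limma, adjusted p = 0.675). The synthetase Ears2, which puts glutamate on that tRNA before GatCAB acts, stayed under the filter, with 9.85 and 13.9 in eGFP against 0 and 5.57 in mVEGF-C libraries.

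Tomm5 (ENSMUSG00000078713, chromosome 4, 45105208 to 45108114) encodes a small subunit of the TOM complex, through which nearly all mitochondrial proteins enter. It had 1377 and 840 normalised counts in eGFP 1 and 2, and 8.55 and 33.4 in mVEGF-C 1 and 2. The lower eGFP library was 25.1-fold above the higher mVEGF-C library. The log2 fold change was -5.89 ± 1.28 (SE, limma, adjusted p = 0.000935), and the call was lost without eGFP 1 (adjusted p = 0.19) and without eGFP 2 (0.21).

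The rest of the outer membrane import genes did not share one direction. Tomm7, also a small TOM subunit, had 164 and 121 in eGFP against 55.6 and 10.2 in mVEGF-C libraries, without overlap but not called (-2.49, interval -5.06 to 0.07, limma, adjusted p = 0.448). Tomm20, a receptor for presequences, had 1280 and 2503 against 1075 and 887, with a difference of -0.87 (interval -2.87 to 1.12). Tomm22, the central receptor, lay the other way at 426 and 696 against 1262 and 761, with a difference of 0.85 (interval -1.35 to 3.04). Neither was called, and the groups lay apart by 1.19-fold for Tomm20 and 1.09-fold for Tomm22. Samm50, which inserts barrel-shaped proteins into the outer membrane, had 564 and 1531 against 606 and 279, so the groups overlapped. In all, 5 of the 7 rows in this group had fold changes below 0, with a median of -0.87 and 1 called. The noncoding Tomm6os was near the floor, at 2.79 to 43.8.

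In the inner membrane, none of 4 genes was called, and the fold changes ran from -0.07 to 1.71. Timm17a and Timm23 form the channel of the presequence translocase. Timm17a had 791 and 551 in eGFP against 1780 and 2616 in mVEGF-C libraries, without overlap (1.71, interval -0.33 to 3.74, limma, adjusted p = 0.564). Timm23 had 524 and 481 against 630 and 1262, also without overlap, with a difference of 0.83 (interval -1.39 to 3.05). Timm21, which links this translocase to the TOM complex, had 191 and 393 against 261 and 260, so its groups overlapped.

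**Figure D3:**
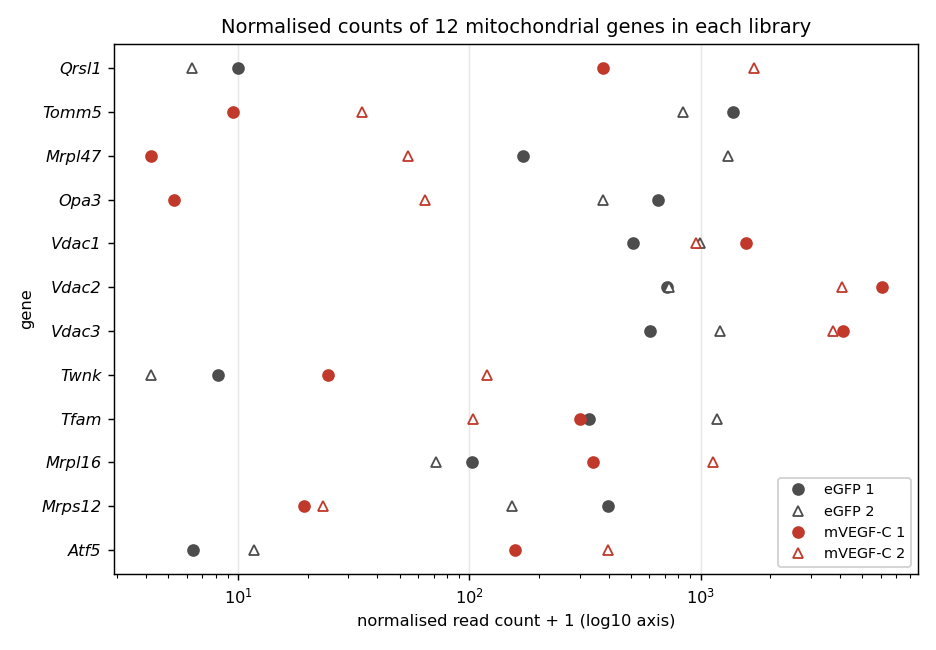
Normalised read count plus 1 in each of the 4 libraries (log10 axis) for 12 mitochondrial genes, grey for eGFP, red for mVEGF-C, filled circles for library 1 and open triangles for library 2. The groups lie far apart for Qrsl1 and Tomm5, overlap for Vdac1, and Vdac2 has 715 and 729 in eGFP against 6074 and 4100 in mVEGF-C.

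Vdac1, Vdac2 and Vdac3 encode the channels through which metabolites cross the outer membrane. Vdac2 had 715 and 729 normalised counts in eGFP against 6074 and 4100 in mVEGF-C libraries, the lowest mVEGF-C library being 5.62-fold above the highest eGFP library. Its log2 fold change of 2.79 ± 0.94 (SE) missed the threshold (limma, adjusted p = 0.0933) and passed it in DESeq2 (0.00971). It missed the threshold in edgeR (adjusted p = 0.0985) and in limma without the variance trend (0.212). Vdac3 had 604 and 1209 against 4112 and 3714, without overlap (2.19 ± 0.95 SE, limma, adjusted p = 0.274). Vdac1 had 511 and 993 against 1569 and 958, so its groups overlapped, and its difference was 0.78 (interval -1.34 to 2.90). The summed count of the 3 genes was 1831 and 2931 in eGFP against 11755 and 8772 in mVEGF-C libraries.

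The mitochondrial ribosome was represented by 21 genes of the large and 9 of the small subunit. Of these 30, 15 had fold changes above 0 and 15 below, with a median of -0.02 and 1 called. Large-subunit genes had a median of -0.50 (9 above 0, 12 below) and small-subunit genes a median of 0.53 (6 above 0, 3 below). The difference between the subunits was not tested.

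Mrpl47 (ENSMUSG00000037531, chromosome 3, 32725397 to 32737605), a large-subunit protein, had 169 and 1307 in eGFP 1 and 2 against 3.20 and 53.0 in mVEGF-C 1 and 2. Replicates differed widely in both groups, but the groups did not overlap. The log2 fold change was -4.97 ± 1.30 (SE, limma, adjusted p = 0.0115). The call was lost without eGFP 1 (adjusted p = 0.0846), eGFP 2 (0.999, at -3.50) or mVEGF-C 1 (0.311, at -3.13), and without the variance trend (0.151). Mrpl47 overlaps Actl6a and Ndufb5 on the other strand, and the strand setting of the counting is not given in the sources used here. Actl6a itself had 519 and 97.3 against 36.3 and 99.4 (limma, adjusted p = 0.643).

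Mrps12, the small-subunit protein at the decoding centre, had 396 and 152 in eGFP against 18.2 and 22.3 in mVEGF-C libraries, the highest mVEGF-C library being 6.81-fold under the lowest eGFP library. It was not called in limma (-3.54 ± 1.30 SE, adjusted p = 0.149) and was called in DESeq2 (0.00237). Neither edgeR (adjusted p = 0.138) nor limma without the variance trend (0.134) called it. At the other end, Mrpl16 had 102 and 70.6 against 340 and 1133 (2.86 ± 1.25 SE, limma, adjusted p = 0.281). DESeq2 called it (adjusted p = 0.0144), but edgeR (0.239) and limma without the variance trend (0.244) did not. Mrpl20 had 93.1 and 129 against 542 and 596 (2.36 ± 1.24 SE, limma, adjusted p = 0.448). Both Mrpl16 and Mrpl20 lay without overlap above the eGFP libraries. Mrpl1, a large-subunit protein, had 323 and 304 against 901 and 674 (1.31, interval -0.99 to 3.61). Mrps18a had 346 and 129 against 1004 and 411 (1.60, interval -0.76 to 3.96). Mrpl37 lay the other way, at 562 and 2188 against 245 and 546 (-1.60, interval -3.83 to 0.64). None of these last 3 was called in limma. Their groups lay apart by 2.08-fold for Mrpl1, 1.19-fold for Mrps18a and 1.03-fold for Mrpl37.

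For other ribosomal genes the libraries of one group differed more than the groups did. Mrpl39 had 413 and 3444 in the eGFP libraries, with 657 and 838 between them in mVEGF-C. Mrpl21 had 1922 and 176 in the mVEGF-C libraries and 123 and 310 in the eGFP libraries, so only mVEGF-C 1 lay above both eGFP libraries. Mrps2 had 57.3 and 371 against 184 and 901, and so overlapped too. The median gap between replicates over the 30 ribosomal genes was 1.35 in the eGFP and 1.42 in the mVEGF-C pair on the log2 scale, against 0.94 and 1.07 over all genes tested.

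**Figure D4:**
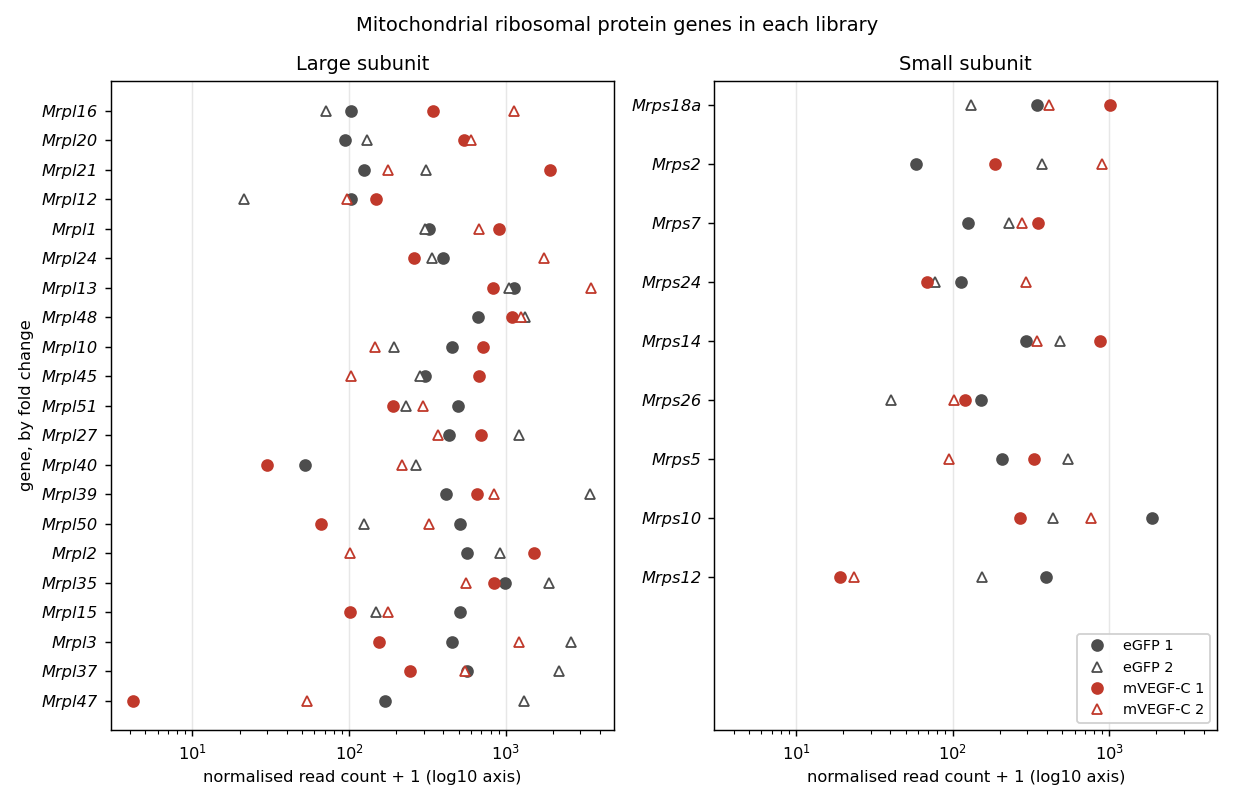
Normalised read count plus 1 (log10 axis) of the 21 large-subunit genes (left) and 9 small-subunit genes (right) in each library, ordered by fold change; grey is eGFP, red mVEGF-C, circles library 1 and triangles library 2. Most rows mix the colours, and 9 of the 30 genes (30.0%) have groups that do not overlap, against 39.2% of all genes tested.

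Set per kilobase of merged exons, the level of a ribosomal message also varied within a library. In eGFP 1 the 30 genes ran from 19.6 (Mrps2) to 480.0 (Mrpl2) normalised counts per kilobase with a median of 85.6. In mVEGF-C 1 they ran from 0.725 (Mrpl47) to 1286 (Mrpl2) with a median of 106. Over all 69 members and 4 libraries, Hspd1 had the highest mean level per kilobase at 1193, followed by Mrpl27 at 686 and Mrpl2 at 659. Single libraries weighed on these means. Hspd1 had 2654 in mVEGF-C 2 against 491 to 1064 in the others, Mrpl27 ran from 376 to 1225 and Mrpl2 from 86.6 to 1286. Merged exons join all annotated transcripts of a gene, so levels of different genes compare only roughly. The lowest were Ears2 at 1.42 and Tomm6os at 6.46.

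Messages that these ribosomes translate were measured as well. All 13 mitochondrially encoded mRNAs had a row, and none was called, with a median fold change of 0.08. Their summed count was 594917 and 532909 in eGFP against 614655 and 621800 in mVEGF-C libraries. Of the ribosomal RNAs of the particle, mt-Rnr1 had a fold change of 0.00. The large-subunit RNA mt-Rnr2 stood at 0.24 and was called (limma, adjusted p = 2.81e-29), but not without the variance trend (0.971) or in DESeq2 (0.945).

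Of 10 translation factors and tRNA synthetases tested, Qrsl1 was the one called, with 5 fold changes above 0 and 5 below. Wars2, which charges the tryptophan tRNA, had 1683 and 451 in eGFP against 58.8 and 628 in mVEGF-C libraries, with overlap (-2.17, interval -4.51 to 0.17). Its difference was -0.47 without mVEGF-C 1 and -3.87 without mVEGF-C 2. Tsfm, the exchange factor of the elongation factor Tu, had 147 and 501 against 144 and 52.0 (-1.63, interval -4.13 to 0.86). Its groups lay apart by 1.02-fold. Hars2, for histidine, had 1402 and 745 against 389 and 489 (-1.23, interval -3.45 to 1.00). Rars2, for arginine, lay the other way at 212 and 109 against 308 and 626 (1.52, interval -0.90 to 3.95). The initiation factor Mtif2 had 730 and 1443 against 2844 and 1452 (0.98, interval -0.97 to 2.94). The groups lay apart for Hars2 and Rars2, and for Mtif2 by 1.01-fold.

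Among the 4 genes for mitochondrial DNA, none was called. Tfam, which packages the genome and starts its transcription, had 328 and 1174 in eGFP against 299 and 103 in mVEGF-C libraries (-1.81, interval -4.20 to 0.57). Without eGFP 2 its difference was -0.89. Twnk, the replicative helicase, was scarce, at 7.16 and 3.21 against 23.5 and 118 (3.20 ± 1.31 SE, limma, adjusted p = 0.224). DESeq2 called Twnk (adjusted p = 0.0388), but edgeR (0.151) and limma without the variance trend (0.222) did not. Mrpl43 overlaps Twnk on the other strand. Polg, the polymerase, had 526 and 1516 against 1348 and 510, so the groups overlapped and the difference was -0.11 (interval -2.25 to 2.04).

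Opa3 (ENSMUSG00000052214, chromosome 7, 19228334 to 19256543) is a mitochondrial membrane protein whose human gene is mutated in a form of optic atrophy. It had 656 and 376 normalised counts in eGFP 1 and 2 against 4.27 and 63.2 in mVEGF-C 1 and 2. The groups did not overlap, although the mVEGF-C libraries differed from each other. The log2 fold change was -4.76 ± 1.29 (SE, limma, adjusted p = 0.0172). It was not called in edgeR (0.115), without the variance trend (0.122), with a filter at a mean of 100 (0.0532), or without eGFP 1 (0.43), eGFP 2 (0.581) or mVEGF-C 1 (0.365, at -2.96).

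The core fusion and fission GTPases were not called. Opa1, which fuses inner membranes, had 3700 and 995 against 2570 and 4415 (0.81, interval -0.90 to 2.52). Mfn1, which fuses outer membranes, had 3178 and 4013 against 4289 and 3506, a difference of 0.12 with an interval of -1.41 to 1.65. Its partner Mfn2 had 1119 and 1466 against 554 and 525, without overlap and with close replicates (-1.25, interval -3.40 to 0.91). Dnm1l, the GTPase that divides mitochondria, had 2450 and 735 against 4020 and 3640, again without overlap but the other way (1.51, interval -0.25 to 3.27). Its receptor Fis1 had 92.2 and 66.3 against 148 and 558 (1.87, interval -0.63 to 4.36). Mff, the other receptor measured, had 2969 and 839 against 1719 and 1800 and so overlapped. Leaving out 1 library turned the sign for Opa1 (-0.14 without eGFP 2), Mfn1 (-0.05 without eGFP 1) and Mff (-0.76 without eGFP 2).

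Chaperonin and prohibitins gave no call. Phb had 284 and 105 in eGFP against 532 and 857 in mVEGF-C libraries, without overlap (1.96, interval -0.41 to 4.34). Phb2, its partner in a ring of the inner membrane, had 191 and 232 against 920 and 139. Hspd1, which folds imported proteins, had 1488 and 2811 against 1298 and 7011. In both Phb2 and Hspd1 the mVEGF-C libraries lay on either side of the eGFP pair, and the sign turned with 1 mVEGF-C library left out (-0.59 for Phb2 without mVEGF-C 1, -0.66 for Hspd1 without mVEGF-C 2).

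**Figure D5:**
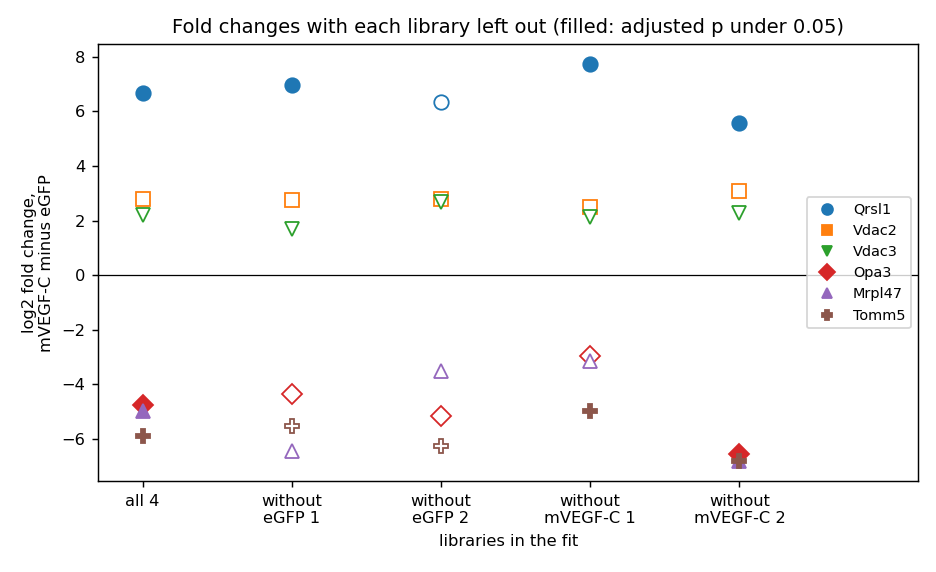
Log2 fold change, mVEGF-C minus eGFP, of 6 genes with all 4 libraries and with each library left out; filled symbols are called (limma, adjusted p under 0.05) and open ones are not. The groups of these 6 genes did not overlap, so leaving out 1 library could not turn a sign. Vdac2 stayed between 2.50 and 3.07 when 1 library was left out.

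Other genes of mitochondrial upkeep were taken from 6 lists with 136 entries, of which 66 had a row and all 66 were tested. Calls were made for 1 higher and 0 lower (limma; at an unadjusted p under 0.05, 6 higher and 4 lower), with 35 fold changes above 0 and a median of 0.05. Over all genes the shares were 0.828% and 1.31% called, and 5.09% and 6.7% at the unadjusted p. The called gene was Atf5, a transcription factor known in mammalian cells for the response to unfolded protein in mitochondria. It had 5.37 and 10.7 in eGFP against 156 and 397 in mVEGF-C libraries (4.86 ± 1.31 SE, limma, adjusted p = 0.0163). Its call was lost with a filter at a mean of 100 (0.0726), without the variance trend (0.0584), and without eGFP 1, eGFP 2 or mVEGF-C 2 (0.386, 0.468 and 0.0781). Pprc1, a coactivator of mitochondrial biogenesis, had 577 and 4312 against 308 and 49.2 (-3.66 ± 1.19 SE, limma, adjusted p = 0.0724). DESeq2 called it (adjusted p = 0.0136), and so did limma without mVEGF-C 1 (-4.97, 0.0149). In limma it stood at -2.21 without eGFP 2 (adjusted p = 0.999), at -2.35 without mVEGF-C 2 (0.362) and at -5.11 without eGFP 1 (0.141), and its adjusted p without the variance trend was 0.243. Oma1, a protease that cleaves Opa1, had 257 and 46.0 against 1472 and 453 (2.89 ± 1.22 SE, limma, adjusted p = 0.254). Neither Pprc1 nor Oma1 overlapped between the groups. By list, the counts above 0 were 5 of 12 for import and sorting, 11 of 15 for ribosome assembly and translation, 6 of 10 for mitochondrial DNA and RNA, 4 of 11 for dynamics and cristae, 5 of 11 for quality control and mitophagy, and 4 of 7 for regulators of biogenesis.

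Some members share their start region with another gene. By GENCODE starts, a protein-coding gene in the opposite direction started within 1000 bases for 26 of the 69, as with Rtn4ip1 at Qrsl1 and Ndufb5 at Mrpl47. Both genes were tested in 10 such pairs, of which 7 had fold changes of the same sign and 3 of opposite sign, and no neighbour was called. Another gene on the opposite strand overlapped 35 of the 69 members, and reads of such genes cannot be told apart where the counting ignored strand. Reads of processed pseudogenes, which many ribosomal protein genes have, could likewise be split by the counting.

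Summed over all 69 members, the normalised count was 47827 and 53473 in eGFP against 59920 and 68681 in mVEGF-C libraries. In the same order these were 0.193%, 0.195%, 0.210% and 0.258% of the library's normalised counts over the genes of the table. The groups did not overlap in this sum, but they did without the 3 Vdac genes, at 45996 and 50542 in eGFP against 48165 and 59909 in mVEGF-C libraries. No library was the lowest for most members: eGFP 1 was lowest for 16, eGFP 2 for 18, mVEGF-C 1 for 20 and mVEGF-C 2 for 15.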

How the data were processed

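RNA of 4 libraries was measured. The labels' protocols name the Arcturus PicoPure kit and linear amplification. The submitters' processing notes name FastQC, Trimmomatic, Salmon and DESeq2 and the build mm10, without versions. The deposited values are a signal, read counts divided by a size factor per library, and dividing each by the lowest non-zero value of its library gave whole numbers for 100% of values (tolerance 0.001), taken as reads. Recovered depth was 25610683 to 28632461 reads per library, on the genes of the table only. Replicates differed beyond counting noise (chi-square per degree of freedom of 456.8 in the eGFP and 517.3 in the mVEGF-C pair). The called members had few reads in their lowest library: Mrpl47 had 3, Opa3 had 4, Qrsl1 had 5 and Tomm5 had 8. Nothing in the labels pairs or orders the libraries, and each is a pool of mice. The limma p-values use the spread between pools averaged over genes of like level, not that of the gene itself.

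The main test was limma 3.58.1 in R 4.3.3 (lmFit, eBayes with a variance trend) on log2(normalised count + 1), two-sided, over 9063 genes with a mean of at least 10, with Benjamini-Hochberg adjustment over all of them. Residual degrees of freedom were 2, and the prior degrees of freedom were infinite, so a gene's own replicate spread did not enter its p. Alternatives were edgeR 4.0.16 and DESeq2 1.42.0 on the recovered reads, other pseudocounts, filters, scalings and variance models, a replicate block, and each library left out. Coordinates, 1-based, and exon lengths are from GENCODE vM21 on GRCm38, and promoters from RefSeq on GRCm38.p6.

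The genes named are the members called, a fixed list of regulators and components where they have a row, the highest and lowest fold change of each role, and called genes of the other mitochondrial lists. Mrpl20, Mrpl1, Mrpl37, Mrps2, Tomm7, Rars2, Hars2, Mtif2, Pprc1, Oma1, Gatc and mt-Rnr2 and the genes given as levels only were chosen after their values were seen. The members and lists were chosen with earlier results of these data known. Group values are given per library, or as a difference with SE or 95% interval, n = 2 each.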

Additional observations from a re-analysis of the deposited data

How the results depend on the processing

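Under quantile normalization mt-Rnr2 stood at 0.00. The signs of Qrsl1, Tomm5, Mrpl47, Opa3, Vdac2 and Vdac3 were the same in all 16 alternatives. The groups of these genes did not overlap, so leaving out 1 library could not turn their signs. Calls depended on the libraries and on the variance model. With 1 library left out, the lone library being assumed to vary like the other group, members called higher ranged from 0 to 1 and members called lower from 0 to 3, and both were 0 without eGFP 2. Without the variance trend 1 member was called lower, and DESeq2 called 4 higher. All genes called ranged from 15 higher and 26 lower without the trend to 283 and 318 in DESeq2, and to 5 and 0 without eGFP 2. The cause of these changes was not tested.

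The median fold change of the members was 0.05 with libraries rescaled to one total, 0.06 at the upper quartile, 0.19 with quantile normalization, 0.24 in edgeR, 0.22 in DESeq2 and 0.12 to 0.31 with 1 library left out. The median of all genes ranged from -0.10 to 0.05. Signs turned for Timm21 with quantile normalization (0.06) and for Mff in edgeR (-0.09) and DESeq2 (-0.12). With 1 library left out, fold changes ranged from -0.87 to 0.66 for Polg, -0.14 to 1.76 for Opa1, -0.05 to 0.29 for Mfn1, -0.76 to 1.07 for Mff, -0.59 to 2.12 for Phb2, -0.66 to 1.78 for Hspd1 and -0.59 to 0.45 for Timm21.

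Replicate numbers share no stated origin, and libraries with one number did not deviate together (correlation 0.00013 across genes). With the replicate block 1 member was called higher and 3 lower, and all genes called were 74 higher and 129 lower, against 75 and 119 without it.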
